A study of Ovis aries with 40 samples.

Results

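Distal lung of CFTR-/- (CF) lambs at term was compared with distal lung of CF fetuses at day 120 of gestation. This is the last interval of the time course. The comparison rests on 4 of the 40 RNA-seq libraries of the series, 2 at day 120 and 2 at term, selected by genotype, region and time point. All 4 come from different animals. The other 6 libraries of the CF distal time course, 2 each at days 65, 80 and 100, shared the estimate of the spread between replicates and give the earlier levels. Every CF animal, at day 120 as well as at term, was a clone. They were made by somatic cell nuclear transfer from a male American Romney sheep fibroblast line in which an early exon of *CFTR* had been targeted, so no comparison of time points within CF involves an animal with intact *CFTR*. Term is labeled day 147. WT distal lung, 2 libraries at day 120 and 2 at term from sheep with intact *CFTR*, was used to ask whether a change differed with genotype, and proximal lung of the same 4 CF animals to ask whether it differed with region. The WT lambs at term were born naturally, and the delivery of the CF lambs is not given in the sources used here. The study names the time of tissue collection after birth as a factor in the transcriptome of term lungs. Birth and the time after it may lie between day 120 and term, and cannot be told apart here from late gestation. Cloning and *CFTR* genotype cannot be told apart in the contrast with WT.

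In late gestation, after most branching, the distal lung expands thin-walled air sacs, which are then divided into alveoli. Alveolar type 2 (AT2) cells make surfactant, the lipid and protein film that keeps the air sacs open, and flat alveolar type 1 (AT1) cells form the surface for gas exchange. Cell division slows, macrophages settle in the tissue, and rising glucocorticoid from the fetal adrenal speeds maturation. The epithelium also turns from secreting chloride-rich liquid, in which CFTR is one of the channels, to absorbing sodium and liquid through the epithelial sodium channel. These are bulk samples, so fewer cells of a type and less RNA per cell cannot be told apart.

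The day 120 libraries held 86480033 and 94449264 counted reads and the term libraries 117558311 and 119451372, over 24478 genes. Levels below are normalized read counts in CPM, reads scaled to a common library size after trimmed mean of M values (TMM) normalization over the 10 CF distal libraries, and each gene's values are given in the order day 120 replicates 1 and 2, then term replicates 1 and 2. The TMM factors were 1.05 and 1.02 at day 120 against 0.788 and 0.740 at term, where the 10 most abundant genes took 7.90% and 7.60% of reads, compared with 4.66% and 5.0% at day 120. The tissue carried its defining markers. The AT2 gene *SFTPC* was at 2289, 4584, 23368 and 3279 CPM, the AT1 gene *AGER* at 536, 891, 1490 and 564, and the endothelial gene *PECAM1* at 585, 703, 560 and 684.

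The replicates of these time points were the least alike of the CF distal course. The root mean square (RMS) difference in log2 CPM between replicates was 1.00 at day 120 and 1.04 at term, against 0.545 to 0.840 at the earlier time points, and the RMS difference between the means of day 120 and term was 1.22. The 2 term lambs differed along recognizable groups of genes. Of 41 tested genes of hypoxia and glycolysis, 39 were higher in replicate 2, as were 30 of 31 genes of motile cilia and 32 of 36 genes of T and NK cells, while 15 of 21 AT2 genes were higher in replicate 1 (all genes tested, 47.5% higher in replicate 2). The summed level of the hypoxia and glycolysis genes was 5893 CPM in term replicate 1 and 30740 in replicate 2. The proximal libraries of the same 2 lambs gave 5252 and 29660 CPM, so this difference lay between the animals in both regions. Counts below depend on single libraries, and the larger dependences are given beside them. In lists with higher genes and no lower one, leaving out 1 library gave at most 2 lower genes.

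**Figure D1:**
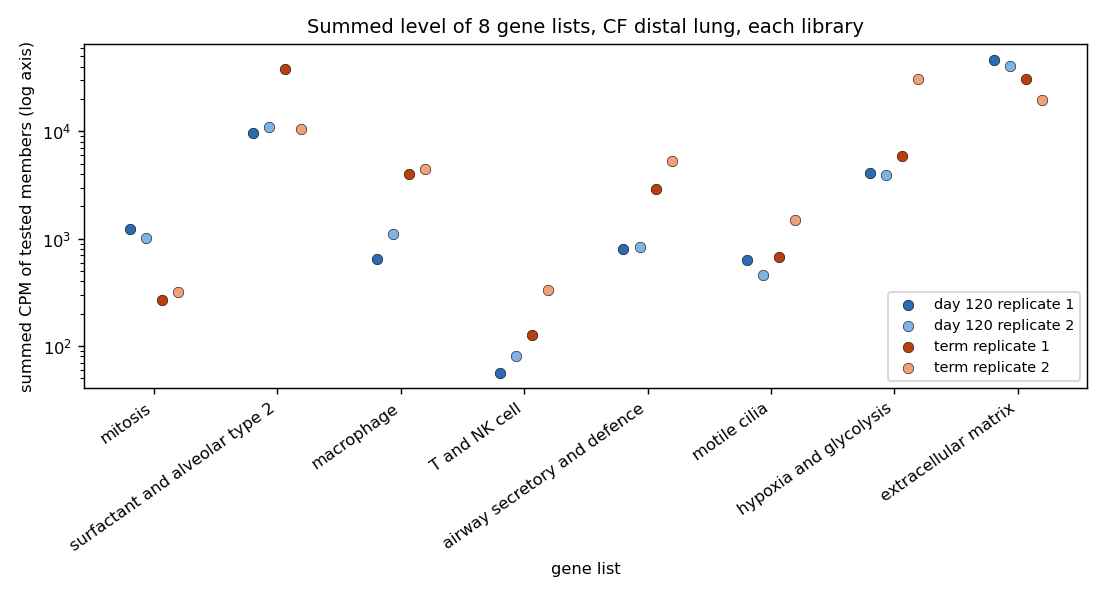
Summed normalized read counts (CPM, log axis) of the tested members of 8 gene lists in each of the 4 CF distal libraries, 1 point per library. The mitosis list lies at 1219 and 1005 CPM at day 120 and at 269 and 318 CPM at term, while the hypoxia and glycolysis list separates the term libraries from each other, at 5893 and 30740 CPM.

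Of 19508 genes tested by edgeR's quasi-likelihood F test, 66 (0.338%) were differentially expressed genes (DEGs), which combine a Benjamini-Hochberg adjusted p up to 0.001 with a change of 0.58 log2 units or more. Of these, 16 were higher at term (0.082%) and 50 were lower (0.256%). With the limit on adjusted p at 0.05 and the same limit on size, the looser limit used below, 2247 genes were higher (11.5%) and 2230 lower (11.4%). The stricter count depended strongly on single libraries, since leaving 1 out gave 0 higher and 5 lower without day 120 replicate 1, 3 and 22 without day 120 replicate 2, 82 and 54 without term replicate 1, and 0 of either without term replicate 2. In the last of these, 1199 genes still passed the looser limit. Each of the 66 DEGs kept its direction in all 4 of those fits. In each of them both term libraries lay past both day 120 libraries, so this outcome was largely fixed by the choice of genes. Complete separation of the 4 libraries was common and is no mark of a DEG, since both term libraries lay above both day 120 libraries for 27.2% of genes and below them for 30.1%.

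The 50 DEGs that fell were mostly genes of cell division, and 29 of them belonged to the lists for mitosis, DNA replication and cell cycle regulators. *KIF18B*, a kinesin that controls spindle microtubules (chromosome 11, 43997941 to 44024304 in Oar_v4.0), was at 19.6 and 12.9 CPM at day 120 and at 0.648 and 0.859 CPM at term. This is a log2 fold change of −4.43 ± 0.30 (SE, adjusted p = 2.6e-04). *TOP2A*, the topoisomerase that untangles chromosomes before they separate, went from 124 and 81.6 CPM to 7.38 and 7.77 CPM (log2 fold change −3.76 ± 0.24). The 2 term values differed by less than 0.4 CPM, although these lambs differed widely in other respects. The spindle pole protein gene *ASPM* was at 28.8, 15.1, 0.832 and 1.55 CPM (−4.21 ± 0.39), and the kinetochore gene *CENPF* at 59.5, 35.2, 2.85 and 4.72 CPM (−3.64 ± 0.32). *FOXM1*, which encodes a transcription factor of mitotic genes, was at 12.4, 7.65, 0.691 and 0.848 CPM (−3.70 ± 0.37), and *E2F8*, a repressor of the E2F family, at 7.68, 5.60, 0.713 and 0.859 CPM (−3.08 ± 0.28).

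**Figure D2:**
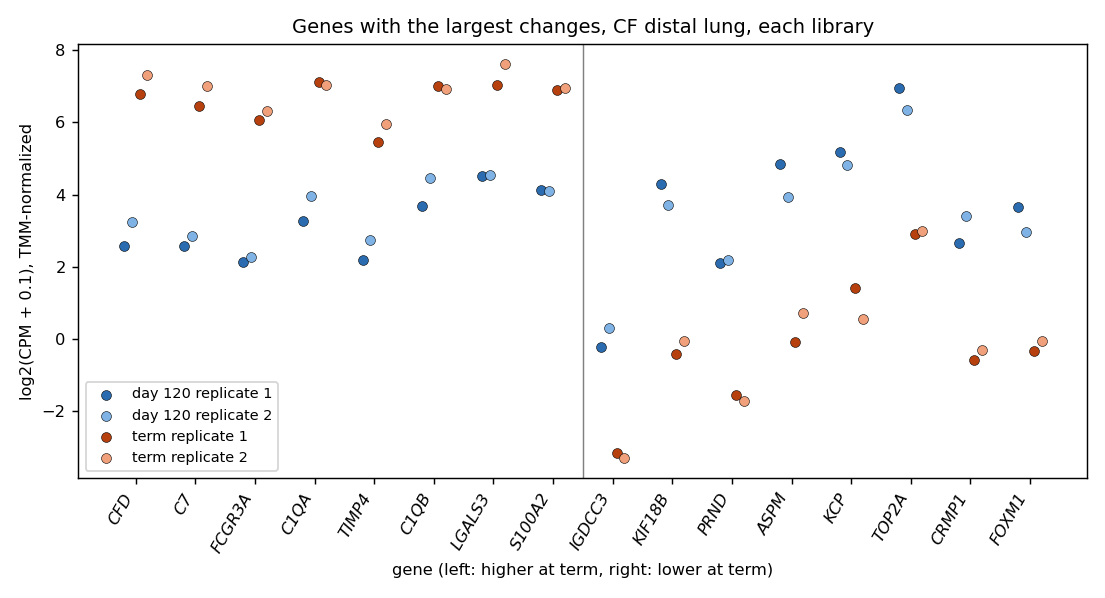
Log2 of CPM plus 0.1 in each library for the 8 DEGs with the largest rise (left of the vertical line) and the 8 with the largest fall (right) among genes with a symbol and an average log2 CPM of at least 1. Points are single libraries, and in every gene shown both term libraries lie on the same side of both day 120 libraries.

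Over the whole mitosis list, 23 of 50 tested genes were DEGs and all 23 were lower. At the looser limit 44 of 50 were lower and none higher, and the median log2 fold change was −2.34, against −0.06 over all genes tested. Leaving out any 1 of the 4 libraries left 42 to 44 genes lower. Of 40 genes of DNA replication, 4 DEGs fell, 21 genes were lower at the looser limit and 1 was higher, with a median of −1.03. *CLSPN*, which couples replication to its checkpoint, was at 14.3, 12.8, 1.36 and 1.14 CPM (−3.44 ± 0.23), and *CDC6*, which loads the replicative helicase, at 7.72, 8.08, 0.951 and 1.14 CPM (−2.92 ± 0.24). *UHRF1*, which maintains DNA methylation behind the fork, was at 44.1, 35.3, 7.91 and 4.96 CPM (−2.62 ± 0.25), and *RRM2*, a subunit of ribonucleotide reductase, at 27.6, 24.8, 4.49 and 4.24 CPM (−2.59 ± 0.18). The exception was *DTL*, an adaptor for a ubiquitin ligase, at 23.7, 22.3, 37.4 and 87.1 CPM (1.44 ± 0.34, adjusted p = 0.019), and it did not pass without term replicate 2, when no replication gene was higher, as without day 120 replicate 1.

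Among 38 cell cycle regulators, 14 were lower and 5 higher at the looser limit. The higher ones included inhibitors of division. *BTG1*, an antiproliferative gene, was at 106, 146, 320 and 983 CPM (2.37 ± 0.44, adjusted p = 0.0099). The cyclin-dependent kinase inhibitor *CDKN1B* was at 83.0, 97.4, 146 and 380 CPM (1.54 ± 0.37, adjusted p = 0.021), and its relative *CDKN1C* at 32.3, 78.1, 103 and 310 CPM (1.90 ± 0.53, adjusted p = 0.034). In all 3 the term libraries lay above the day 120 libraries, with replicate 2 highest. Of the 38 regulators, 1 was higher and 12 lower without term replicate 2, and 0 were higher and 11 lower without day 120 replicate 1.

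The 21 falling DEGs outside the lists were led by genes outside the cell cycle, but also held genes of cell division such as *TROAP*. *IGDCC3*, a member of the immunoglobulin superfamily (chromosome 7, 12044044 to 12087096), had 176 reads at day 120 and 1 at term, which corresponds to a ratio of 171 per normalized read (95% exact interval 30.3 to 6790, counting error only). Its level had been 10.5 and 13.4 CPM at day 65. *PRND*, which encodes a prion-like protein, was at 4.15, 4.46, 0.238 and 0.204 CPM (−4.28 ± 0.43), *KCP*, a modulator of bone morphogenetic protein (BMP) signaling, at 36.3, 28.0, 2.57 and 1.37 CPM (−4.03 ± 0.34), and *CRMP1*, of the collapsin response mediator family, at 6.22, 10.5, 0.562 and 0.701 CPM (−3.73 ± 0.32). *FBN3*, a fibrillin of fetal tissue, was at 82.1, 49.6, 6.89 and 5.67 CPM (−3.39 ± 0.30). *NEURL1B*, a ubiquitin ligase of Notch signaling, fell by 2.01 ± 0.19, from 113 and 90.6 CPM to 24.6 and 25.9 CPM. All 50 falling DEGs already had a lower mean at day 120 than at day 100, and in all 50 both term libraries were below every one of the 8 earlier libraries. The shares over all genes tested were not counted, so these numbers do not set the DEGs apart.

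**Figure D3:**
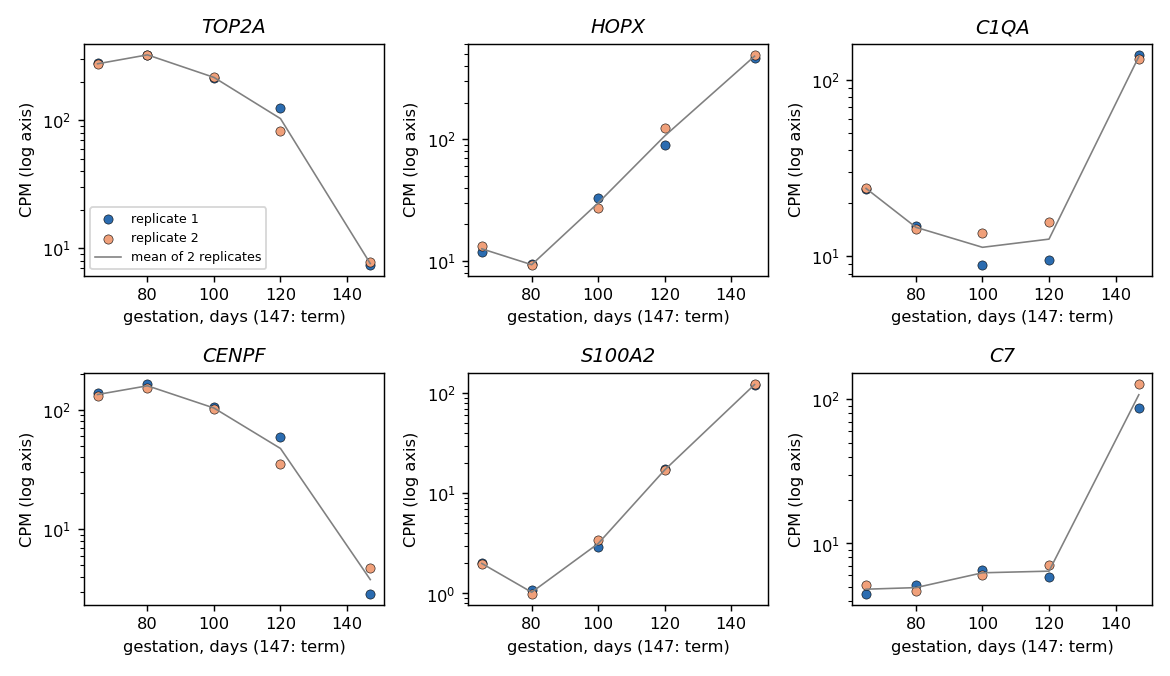
Normalized read counts (CPM, log axis) against gestational day in CF distal lung for 6 DEGs, with 1 point per replicate and a line through the means of 2 replicates. *TOP2A* and *CENPF* decline from day 80 and drop to 7.57 and 3.78 CPM (means) at term, while *HOPX* and *S100A2* climb from day 80 on and *C1QA* and *C7*, no higher than 24.4 CPM before term, reach 136 and 108 CPM at term.

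Among the 16 DEGs that rose were genes of complement and of macrophages. In all 16, both term libraries were above every one of the 8 earlier libraries. The share of all genes tested with this pattern was not counted. *CFD*, the protease that starts the alternative complement pathway (chromosome 5, 40735879 to 40738461), went from 5.85 and 9.42 CPM to 110 and 161 CPM (4.15 ± 0.39, adjusted p = 7.4e-04). *C7*, a component of the membrane attack complex, went from 5.82 and 7.04 CPM to 86.9 and 128 CPM (4.07 ± 0.27, adjusted p = 2.6e-04), after 4.44 to 6.50 CPM in the 6 earlier libraries. *C1QA* and *C1QB*, chains of the complement recognition protein C1q and typical of tissue macrophages, are neighbors on chromosome 2 (243073479 to 243076484 and 243049596 to 243056600). *C1QA* was at 9.49, 15.6, 140 and 132 CPM (3.44 ± 0.30) and *C1QB* at 12.6, 22.0, 129 and 121 CPM (2.85 ± 0.28). *FCGR3A*, an Fc receptor of macrophages, monocytes and NK cells, was at 4.25, 4.68, 67.5 and 79.9 CPM (4.04 ± 0.26).

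The other rising DEGs included epithelial, lysosomal and protease inhibitor genes and 4 loci without a symbol. The largest rise of all was in such a locus, *LOC105603269*, at 0.066, 0.104, 14.7 and 43.3 CPM (8.38 ± 0.72), followed by *LOC101120001* at 0.974, 1.84, 30.3 and 28.6 CPM (4.38 ± 0.42). *HOPX*, a marker of AT1 cells, was at 88.8, 124, 465 and 496 CPM (2.18 ± 0.21), and *S100A2*, a calcium-binding protein gene typical of basal epithelium, at 17.3, 16.9, 119 and 124 CPM (2.83 ± 0.20). *LGALS3*, which encodes galectin-3, was at 22.8, 23.4, 131 and 198 CPM (2.83 ± 0.25). *CTSZ*, a lysosomal cathepsin, went from 93.6 and 122 CPM to 639 and 594 CPM (2.52 ± 0.24), and *POR*, the electron donor of microsomal cytochromes P450, from 120 and 107 CPM to 402 and 422 CPM (1.85 ± 0.18). *TIMP4*, an inhibitor of matrix metalloproteinases, was at 4.43, 6.62, 43.6 and 61.5 CPM (3.25 ± 0.30). The unnamed locus *LOC101106871* was at 44.1, 31.4, 304 and 525 CPM (3.46 ± 0.31).

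Of 31 macrophage genes, 22 were higher at the looser limit and none lower, with a median log2 fold change of 1.59. The count was 10 without day 120 replicate 1 and 13 without term replicate 2. *MARCO*, a scavenger receptor of alveolar macrophages, had 2 reads at day 120 and 2392 at term. The ratio was 1230 per normalized read (95% exact interval 341 to 10200, counting error only), and the adjusted p of 0.0012 just missed the limit for a DEG. It was at 13.8 and 12.6 CPM at term, against no more than 0.111 CPM in any of the 8 earlier libraries. *CD5L*, secreted by macrophages, had no read at day 120 and was at 2.03 and 8.46 CPM at term (adjusted p = 0.011). The third C1q chain gene, *C1QC*, was at 12.98, 24.4, 133 and 122 CPM (2.77 ± 0.29, adjusted p = 0.0011), and the microglia and macrophage gene *AIF1* at 2.20, 3.73, 29.3 and 21.5 CPM (3.10 ± 0.36, adjusted p = 0.002). *APOE*, the lipid carrier made by macrophages and other cells, was at 404, 808, 3006 and 2176 CPM (2.10 ± 0.37, adjusted p = 0.0083). The members did not all move alike. *CSF1R*, the receptor for colony stimulating factor 1, was at 17.7, 19.02, 36.2 and 52.0 CPM (1.26 ± 0.25, adjusted p = 0.011) and *CD68* at 34.8, 39.4, 31.96 and 36.6 CPM (−0.12 ± 0.19, adjusted p = 0.67).

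Most lymphocyte and granulocyte genes were higher in term replicate 2 than in term replicate 1. Both term libraries lay above both day 120 libraries for 25 of 36 T and NK cell genes and 17 of 28 B and plasma cell genes. The number was 10 of 17 for neutrophil and mast cell genes, and the share of all genes tested was 27.2%. The 36 T and NK cell genes had a median log2 fold change of 2.7 (2.6 with 1 gene that was near 0 at day 120 set at its counting bound). It was 1.41 without term replicate 2 and 3.25 without term replicate 1. At the looser limit 15 of the 36 were higher and none lower. Without term replicate 2 the number was 2, and without day 120 replicate 1 it was 0. *CD8A*, the coreceptor of cytotoxic T cells, was at 0.476, 0.312, 2.27 and 12.8 CPM, and the cytotoxic granule gene *PRF1* at 0.066, 0.146, 0.324 and 16.0 CPM. Of 17 neutrophil and mast cell genes, 8 were higher, and 1 without term replicate 2 or day 120 replicate 1. Of 28 B and plasma cell genes, 10 were higher and 2 lower, with 3 and 2 without term replicate 2 and 2 and 2 without day 120 replicate 1. *CR2*, the complement receptor of B cells and follicular dendritic cells, was at 0.044, 0.062, 4.90 and 7.92 CPM (adjusted p = 0.0044), whereas *CD22* was at 139, 136, 37.5 and 24.7 CPM (−2.14 ± 0.26, adjusted p = 0.0024).

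Of 27 genes of antigen presentation 14 were higher and 1 lower, with a median of 1.19. These became 14 and 4 without day 120 replicate 2, 8 and 0 without term replicate 2 and 7 and 0 without day 120 replicate 1. *B2M*, the invariant chain of class I molecules, was at 309, 434, 1732 and 3057 CPM (2.69 ± 0.33, adjusted p = 0.0024), and the immunoproteasome subunit gene *PSMB9* at 6.21, 12.8, 48.1 and 59.7 CPM (2.50 ± 0.40, adjusted p = 0.0064). Interferon-induced genes gave 4 higher and 1 lower of 38 (median 0.44). These became 1 and 6 without term replicate 1, 7 and 2 without day 120 replicate 2, and 0 and 0 without term replicate 2 or day 120 replicate 1. Genes of the inflammatory response gave 11 higher and 2 lower of 44 (median 0.25), which became 6 and 5 without day 120 replicate 2, 2 and 1 without day 120 replicate 1, and 2 and 0 with a median of −0.09 without term replicate 2. Complement as a pathway did not move as 1 block. Of its 24 genes, 8 were higher, among them the DEGs *CFD* and *C7* and the alternative pathway stabilizer *CFP* at 2.26, 3.04, 17.6 and 22.8 CPM (adjusted p = 0.001003, just outside the limit for a DEG), and 4 were lower. Without term replicate 2 or day 120 replicate 1, 4 were higher and 1 lower. The lower ones were the lectin pathway proteases *MASP1* (43.0, 24.4, 5.31 and 2.36 CPM) and *MASP2* (45.1, 30.4, 18.98 and 14.8 CPM), the C3b-cleaving protease *CFI* (94.7, 76.7, 31.1 and 46.4 CPM), and *LOC101123672*, a complement C4 locus (42.9, 56.1, 22.1 and 24.0 CPM), with adjusted p of 0.015, 0.018, 0.018 and 0.020. *C3* itself was at 384, 335, 425 and 318 CPM (0.05 ± 0.23, adjusted p = 0.90).

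**Figure D4:**
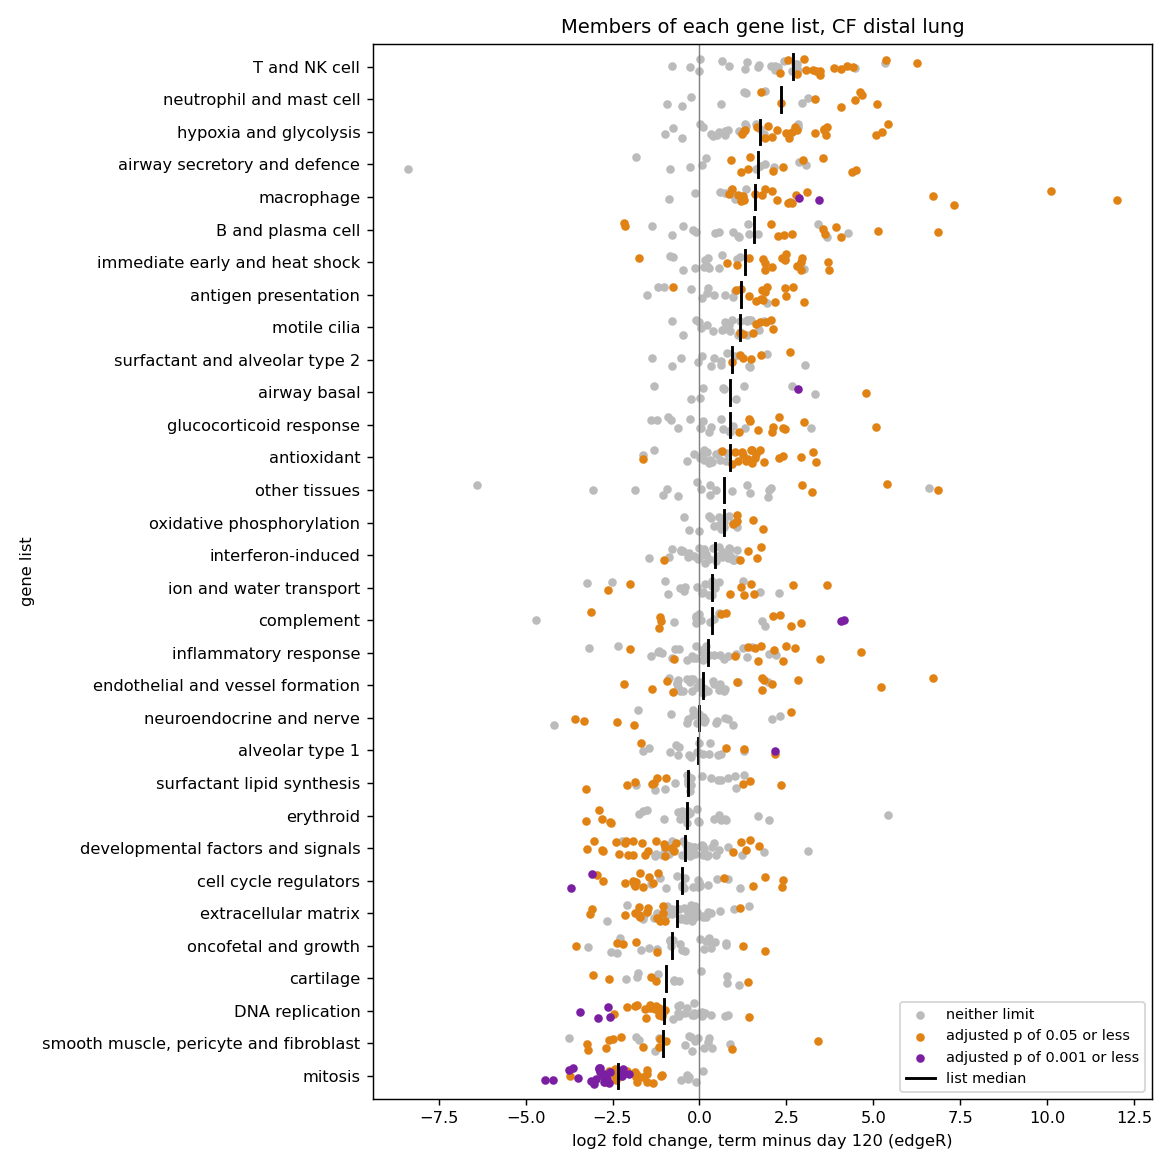
Log2 fold change from day 120 to term in CF distal lung (edgeR) of each tested member of 32 gene lists, ordered by list median (black bar). Purple points are DEGs, orange points pass the looser limit and gray points pass neither, and the mitosis list, with a median of −2.34, holds 23 of the DEGs.

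Of 21 AT2 and surfactant genes, none was a DEG, 6 were higher and none lower at the looser limit, and the median was 0.94. The median was 0.19 without term replicate 1 and 1.16 without term replicate 2. *NKX2-1*, the transcription factor that specifies lung epithelium, was at 82.1, 92.7, 214 and 200 CPM (1.24 ± 0.19, adjusted p = 0.0056), and *CTSH*, a cathepsin that processes surfactant protein, at 147, 214, 556 and 453 CPM (1.48 ± 0.27, adjusted p = 0.009). *SFTPD*, a collectin of surfactant, was at 307, 380, 856 and 687 CPM (1.17 ± 0.32, adjusted p = 0.032). The genes of the other surfactant proteins did not pass. *SFTPA1* was at 1256, 1255, 4024 and 1060 CPM (1.02 ± 0.54, adjusted p = 0.19) and *SFTPB* at 1771, 1675, 3538 and 1709 CPM (0.61 ± 0.31, adjusted p = 0.17). *SFTPC*, whose values are given above, had a log2 fold change of 1.96 ± 0.74 (adjusted p = 0.083). In each of these 3, term replicate 2 lay within or below the range of day 120. *NAPSA*, a protease that matures surfactant proteins, was at 53.2, 46.1, 223 and 44.8 CPM. Of the 21 genes, 9 were higher without term replicate 2, 3 without term replicate 1 and 2 without day 120 replicate 1.

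Genes for the synthesis of surfactant lipid and sterol went both ways, with 3 of 29 higher and 7 lower. These became 7 and 9 without term replicate 1, 2 and 3 without term replicate 2, and 1 and 3 without day 120 replicate 1. The lower ones included the sterol synthesis gene *HMGCS1* at 163, 132, 52.8 and 28.8 CPM (−1.85 ± 0.33, adjusted p = 0.0088). *SREBF2*, a transcription factor of sterol synthesis genes, was at 258, 237, 146 and 67.2 CPM (−1.21 ± 0.32, adjusted p = 0.028). *FABP5*, a fatty acid carrier, was at 39.6, 57.0, 330 and 161 CPM (2.34 ± 0.40, adjusted p = 0.0076). Of 22 AT1 genes, 4 were higher and 1 lower. These became 2 and 0 without day 120 replicate 1, 2 and 2 without day 120 replicate 2, 4 and 4 without term replicate 1 and 3 and 0 without term replicate 2. Besides *HOPX*, the higher ones were the tight junction gene *CLDN3* at 6.41, 8.06, 36.5 and 29.4 CPM (adjusted p = 0.0071), the water channel *AQP5* at 87.1, 92.3, 307 and 131 CPM (adjusted p = 0.0495) and the keratin *KRT7* at 105, 104, 157 and 201 CPM (adjusted p = 0.036). Podoplanin (*PDPN*) was at 805, 733, 646 and 206 CPM, and *RTKN2*, another AT1 marker, at 64.0, 49.7, 28.3 and 8.79 CPM. The median log2 fold change of the AT1 list was −0.03, and 12 of the 22 genes had a negative change. That median was −0.36 without term replicate 1 and 0.02 without term replicate 2.

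*CFTR* transcripts were counted in all 4 CF libraries, at 11.5, 5.79, 3.74 and 4.93 CPM, after 19.5 to 34.9 CPM at days 65 to 100. The fall of 0.995 ± 0.33 from day 120 to term missed both limits (adjusted p = 0.057), and counts per gene cannot show the targeted change, so they do not check the genotype. Of 29 genes of ion and water transport, 7 were higher and 2 lower at the looser limit (8 and 4 without term replicate 1, 6 and 0 without term replicate 2, 2 and 1 without day 120 replicate 1). *SCNN1B* and *SCNN1G*, subunits of the epithelial sodium channel, were at 16.7, 21.6, 56.9 and 50.9 CPM (1.49 ± 0.29, adjusted p = 0.011) and at 4.17, 2.83, 15.9 and 28.9 CPM (2.68 ± 0.39, adjusted p = 0.0046). *SCNN1A*, which encodes the alpha subunit, was at 17.6, 8.30, 33.8 and 27.9 CPM (1.25 ± 0.50, adjusted p = 0.095). *PRSS8*, a protease that activates the channel, was at 90.3, 97.1, 182 and 250 CPM (1.20 ± 0.21, adjusted p = 0.0076). The chloride channel genes *ANO1* and *SLC26A9* gave log2 fold changes of 0.16 ± 0.19 (adjusted p = 0.56) and 0.36 ± 0.63 (adjusted p = 0.70), while *CLCN2* was at 14.02, 7.89, 3.31 and 2.18 CPM (−2.0 ± 0.36, adjusted p = 0.0089).

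Among 22 genes of airway secretory cells and host defense, 10 were higher and none lower, and 4 were higher without term replicate 2 or 2 without day 120 replicate 1. *SCGB1A1*, the main secretoglobin of club cells, was at 9.18, 33.5, 620 and 345 CPM (4.50 ± 0.70, adjusted p = 0.0056), and *SCGB3A2*, another secretoglobin, at 110, 35.9, 423 and 2652 CPM (4.40 ± 0.95, adjusted p = 0.015). *WFDC2*, a secreted protease inhibitor, was at 61.4, 102, 288 and 160 CPM (1.45 ± 0.31, adjusted p = 0.015). *BPIFA1* was below the filter, with 2, 0, 6 and 56 reads. Of 31 motile cilia genes, 8 were higher, which became 20 without term replicate 1, 3 without day 120 replicate 2 and 1 without term replicate 2 or day 120 replicate 1. *FOXJ1*, the transcription factor of multiciliated cells, was at 34.8, 27.0, 44.6 and 146 CPM. *TPPP3*, a microtubule gene of cilia, was at 112, 124, 238 and 287 CPM (1.16 ± 0.20, adjusted p = 0.0073).

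Genes of hypoxia and glycolysis depended strongly on the library. Their median log2 fold change was 0.41 without term replicate 2 and 2.37 without term replicate 1. Of 41 tested, 21 were higher and none lower (median 1.75), but 6 without term replicate 2, 3 without day 120 replicate 1 and 13 without day 120 replicate 2, against 33 without term replicate 1. *SLC2A3*, a glucose transporter, was at 200, 117, 211 and 3838 CPM, and *GAPDH* at 389, 599, 883 and 6008 CPM (2.80 ± 0.71, adjusted p = 0.025). The hypoxia sensor gene *EGLN3* was at 14.3, 6.04, 69.7 and 705 CPM, and *DDIT4*, induced by hypoxia and by glucocorticoid, at 34.6, 38.6, 166 and 2304 CPM (5.08 ± 0.97, adjusted p = 0.011). In the last 2 both term lambs were above both fetuses, and replicate 2 was over 10 times replicate 1. Proximal lung of the same lambs gave 158 and 2340 CPM for *DDIT4*. Of 29 glucocorticoid response genes, 11 were higher and none lower, and 7 without day 120 replicate 1. *FKBP5*, a feedback inhibitor of the glucocorticoid receptor, was at 9.72, 5.10, 50.6 and 68.1 CPM (3.0 ± 0.34, adjusted p = 0.0017), and *DUSP1*, a phosphatase of stress kinases, at 88.6, 72.7, 264 and 621 CPM (2.46 ± 0.36, adjusted p = 0.0046). *GLUL*, glutamine synthetase, was at 188, 179, 208 and 163 CPM.

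Antioxidant genes were higher in 20 of 38 cases and lower in 1, in 11 and 0 without term replicate 2 and in 5 and 0 without day 120 replicate 1. *FTH1*, the ferritin heavy chain, was at 478, 866, 1848 and 1978 CPM (1.51 ± 0.32, adjusted p = 0.014), the peroxidase *PRDX6* at 476, 794, 1762 and 1217 CPM (1.23 ± 0.31, adjusted p = 0.024), and *GPX3* at 7.06, 12.5, 46.2 and 153 CPM (3.35 ± 0.54, adjusted p = 0.0062). Of 32 immediate early and heat shock genes, 16 were higher and 1 lower (8 and 0 without term replicate 2, 7 and 0 without day 120 replicate 1), with *FOS* at 12.6, 7.76, 205 and 57.0 CPM (3.69 ± 0.54, adjusted p = 0.0048). Of 21 genes of oxidative phosphorylation, 6 were higher, which became 14 without day 120 replicate 2, 4 without term replicate 1, 1 without term replicate 2 and 0 without day 120 replicate 1.

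Mesenchymal genes were more often lower than higher. The median log2 fold change of smooth muscle, pericyte and fibroblast genes ran from −1.05 to −0.5 when 1 library was left out. Of 28 smooth muscle, pericyte and fibroblast genes, 10 were lower and 2 higher at the looser limit, with a median of −1.05, 5 lower without term replicate 2 and 6 without day 120 replicate 1. *ACTA2*, smooth muscle actin, was at 812, 827, 180 and 91.7 CPM (−2.59 ± 0.38, adjusted p = 0.0046), *MYH11*, the smooth muscle myosin, at 400, 345, 51.9 and 63.4 CPM (−2.69 ± 0.28, adjusted p = 0.0011), and *MYOCD*, the coactivator that drives their transcription, at 27.4, 18.01, 2.46 and 2.45 CPM (−3.21 ± 0.40, adjusted p = 0.0025). Of 59 extracellular matrix genes, 14 were lower and 1 higher (median −0.66), 5 lower without term replicate 2 and 6 without day 120 replicate 1. *TNC*, the developmental matrix protein tenascin C, was at 673, 578, 110 and 30.3 CPM (−3.16 ± 0.55, adjusted p = 0.0077), and *THBS1*, thrombospondin 1, at 1100, 339, 72.4 and 97.8 CPM (−3.08 ± 0.52, adjusted p = 0.0072). The fibrillar collagen *COL1A2* was at 3330, 3336, 1621 and 392 CPM (−1.73 ± 0.56, adjusted p = 0.053). The member higher at the looser limit was the proteoglycan decorin gene, *DCN*, at 347, 353, 706 and 858 CPM (1.16 ± 0.23, adjusted p = 0.012).

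Developmental regulators fell more often than they rose, with 21 of 66 lower and 5 higher (10 and 2 without term replicate 2, 11 and 1 without day 120 replicate 1). *ETV4*, a target of fibroblast growth factor (FGF) signaling, was at 20.2, 29.0, 4.39 and 1.64 CPM (−3.03 ± 0.44, adjusted p = 0.0045), *GLI1*, a target of hedgehog signaling, at 65.1, 47.8, 11.6 and 4.93 CPM (−2.77 ± 0.39, adjusted p = 0.0042), and the ligand gene *FGF18* at 35.7, 39.8, 6.16 and 1.80 CPM (−3.25 ± 0.56, adjusted p = 0.0076). *TCF21*, a transcription factor of lung fibroblasts, was at 113, 194, 411 and 427 CPM (1.45 ± 0.26, adjusted p = 0.009) and the growth factor gene *FGF7* at 13.6, 14.6, 60.1 and 31.8 CPM (1.70 ± 0.34, adjusted p = 0.012). Of 40 endothelial genes, 8 were higher and 4 lower (median 0.09), and 2 were higher without term replicate 2 or day 120 replicate 1, with 1 and 2 lower. The endothelial median was 0.137 without term replicate 1 and −0.115 without term replicate 2. *CA4*, the carbonic anhydrase of the lung capillary, was at 1.02, 0.541, 41.8 and 16.0 CPM (5.21 ± 0.60, adjusted p = 0.0018), while *NOS3*, the endothelial nitric oxide synthase, was at 39.7, 42.9, 17.7 and 14.4 CPM (−1.36 ± 0.24, adjusted p = 0.0087). Erythroid genes were lower in 5 of 28 cases, among them the red cell anion exchanger *SLC4A1* at 2.79, 2.11, 0.356 and 0.339 CPM. That number was 2 without either day 120 library. The oncofetal list gave 2 higher and 5 lower of 30, and without 1 library 0 to 2 higher and 0 to 9 lower, with no gene of either direction without day 120 replicate 1. Cartilage gave 1 and 4 of 16, with 7 lower without term replicate 1 and 2 without term replicate 2. Neuroendocrine and nerve genes gave 1 and 4 of 26, with 0 and 0 without term replicate 2 and 1 and 2 without term replicate 1. Airway basal genes gave 2 and 0 of 12, with 1 higher without term replicate 2 or day 120 replicate 1, and markers of liver, mesothelium, lymph node, striated muscle and thyroid 4 and 0 of 22, with 2 higher without day 120 replicate 1. In the last list the albumin gene *ALB* was at 1.88, 3.96, 16.5 and 7.70 CPM.

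The change in CF was then set against the change in WT distal lung over the same interval, with 1 test per gene of the difference between the 2 changes in a fit of all 20 distal libraries. The labels give 1 animal for both WT libraries at day 100, and the same animal name for WT day 65 replicate 2 and CF day 100 replicate 2, which differ in genotype, and the fit counts each library as a separate animal. Of 20084 genes, 11 had a change in CF above that in WT (0.0548%) and 27 below it (0.134%). With the 2 WT day 100 libraries summed into 1, these fell to 2 and 5. At the looser limit there were 845 (4.21%) and 1024 (5.1%), and with the 8 libraries of day 120 and term alone the DEG limits passed 0 and 0, and no gene of any list counted below passed the looser limit. Without 1 library the stricter counts ran from 1 to 185 above and from 0 to 291 below, with 1 and 0 without either WT day 120 library, 1 and 16 without WT term replicate 1, 4 and 77 without WT term replicate 2, 5 and 23 without CF day 120 replicate 1, 41 and 39 without CF day 120 replicate 2, 185 and 291 without CF term replicate 1 and 3 and 5 without CF term replicate 2. The WT libraries at day 120 were shallower, with 24670355 and 40601998 reads, and thinning all libraries to the same depth gave 14 and 26. CPM in the following sentences are normalized over these 20 libraries, so CF values can differ slightly from those above.

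Genes of mitosis fell in CF and had a median change near 0 in WT. The 50 DEGs that fell in CF had a median change of −0.11 in WT, and since the same CF libraries chose them, no count of their differences from WT is given. In the mitosis list, 38 of 50 genes were below WT and none above. The median difference was −2.41, and the median change in WT was −0.10. The number stayed between 33 and 42 when any 1 of the 8 libraries of day 120 and term was left out, but was 0 when these 8 libraries were fitted alone. *KIF18B* went from 19.2 and 13.1 CPM to 0.641 and 0.855 CPM in CF and from 7.66 and 6.72 CPM to 8.71 and 3.15 CPM in WT (difference −4.15 ± 0.51, adjusted p = 5.3e-04). *TOP2A* in WT was at 102, 86.7, 93.8 and 33.2 CPM (difference −3.19 ± 0.46, adjusted p = 0.0015). The WT lambs at term differed from each other in these genes, replicate 1 being the higher, and both stayed above both CF lambs. *E2F7*, an E2F repressor, went from 11.1 and 6.69 CPM to 1.23 and 1.06 CPM in CF and from 4.34 and 5.57 CPM to 10.3 and 6.56 CPM in WT (difference −3.72 ± 0.41, adjusted p = 3.9e-04), and *TROAP*, a spindle protein gene, from 11.99 and 10.8 CPM to 1.19 and 0.844 CPM in CF and from 3.96 and 5.32 CPM to 6.77 and 3.73 CPM in WT (difference −3.66 ± 0.41, adjusted p = 3.9e-04). Of 40 DNA replication genes, 17 were below WT and 1 above. The 17 became 10 without WT day 120 replicate 1, 11 without WT term replicate 1, and 0 with the 8 libraries alone.

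**Figure D5:**
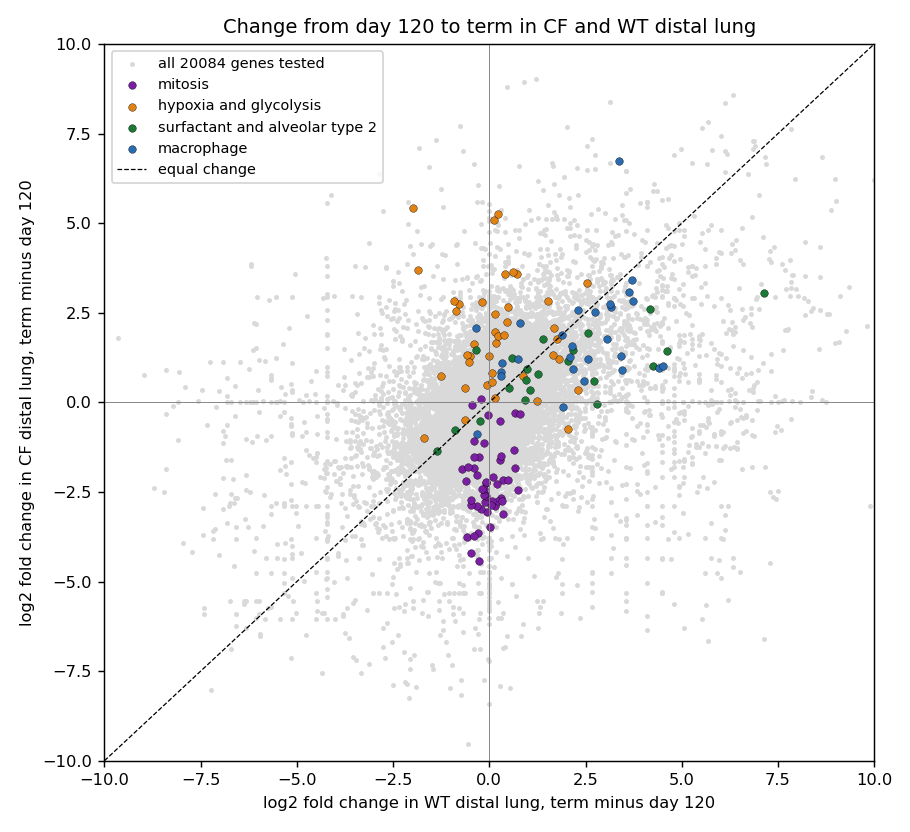
Log2 fold change from day 120 to term in CF (vertical) against WT (horizontal) distal lung for 20084 genes (gray), with 4 gene lists in color and the line of equal change dashed. Axes end at 10 and leave out 12 genes. Mitosis genes lie near 0 in WT and below 0 in CF, and most hypoxia and glycolysis genes lie near 0 in WT and above 0 in CF.

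The 16 DEGs that rose in CF had changes in WT from 1.51 to 4.73 (median 3.32). *POR* went from 104 and 101 CPM to 951 and 761 CPM in WT (difference −1.21 ± 0.22, adjusted p = 0.0049). *C7* in WT was at 5.85, 5.37, 40.8 and 89.4 CPM (difference 0.52 ± 0.44, adjusted p = 0.50) and *HOPX* at 158, 162, 470 and 441 CPM (difference 0.66 ± 0.36, adjusted p = 0.27). In the macrophage list 3 of 31 genes were below WT and 2 above, and 1 and 1 without CF day 120 replicate 1 or either WT day 120 library. *MARCO* in WT went from no read at day 120 to 196 and 495 CPM at term, against 13.6 and 12.5 CPM in the CF lambs, and the difference between the changes, with near 0 at day 120 in both genotypes, was not resolved (adjusted p = 0.33). *CD68* had a change in CF 2.02 below that in WT (adjusted p = 0.0093), and *APOE* one that was 2.43 above it (adjusted p = 0.0085).

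In the fit of 20 libraries, several genes of surfactant and ion transport had a change in CF below that in WT, and with the 8 libraries alone the surfactant and ion transport lists each had 0 genes at the looser limit. *SFTPB* went from 540 and 573 CPM to 3147 and 4227 CPM in WT (difference −2.13 ± 0.52, adjusted p = 0.022) and *SFTPA1* from 229 and 187 CPM to 3514 and 4464 CPM (difference −3.25 ± 0.85, adjusted p = 0.029). The surfactant lipid transporter *ABCA3* and *NAPSA* had differences of −2.83 and −3.20 (adjusted p = 0.010 and 0.018), so 4 of 21 AT2 genes were below WT and none above. The 4 became 7 without CF term replicate 1, 2 without CF term replicate 2, WT day 120 replicate 1 or WT term replicate 2, and 1 without WT day 120 replicate 2. For *SFTPA1* and *SFTPB*, the levels at day 120 were higher in CF than in WT. *SCNN1B* went from 12.4 and 23.8 CPM to 286 and 358 CPM in WT (difference −2.66 ± 0.42, adjusted p = 0.0024) and *ANO1* from 114 and 123 CPM to 359 and 337 CPM (difference −1.39 ± 0.29, adjusted p = 0.0093). In ion and water transport 8 of 29 genes were below WT and none above, with 5 below without CF day 120 replicate 1 or CF term replicate 2 and 4 without either WT day 120 library or WT term replicate 1. *CFTR* itself was at 11.2, 13.3, 10.5 and 12.8 CPM in WT (difference −0.91 ± 0.37, adjusted p = 0.14). *SCGB1A1* was below WT (difference −6.72 ± 1.18, adjusted p = 0.0045), since WT started from 0.505 and 0.30 CPM and reached 389 and 1417 CPM. *ACTA2* in WT was at 381, 262, 404 and 409 CPM (difference −2.94 ± 0.44, adjusted p = 0.0019). *PTPRE*, a receptor-type tyrosine phosphatase, went from 6.65 and 5.80 CPM to 114 and 76.0 CPM in WT and from 17.2 and 15.2 CPM to 21.7 and 19.3 CPM in CF (difference −3.59 ± 0.37, adjusted p = 3.3e-04).

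Differences in the other direction were fewer. *AGTR1*, the type 1 angiotensin II receptor, went from 97.3 and 119 CPM to 26.6 and 29.4 CPM in WT and from 46.9 and 38.6 CPM to 62.4 and 51.5 CPM in CF (difference 2.36 ± 0.29, adjusted p = 5.9e-04). *BMPER*, which binds BMPs, went from 112 and 113 CPM to 68.4 and 56.8 CPM in WT and from 54.4 and 54.2 CPM to 175 and 133 CPM in CF (difference 2.35 ± 0.28, adjusted p = 4.1e-04). *CDR1* fell in both, from 37.2 and 45.6 CPM to 0.124 and 0.070 CPM in WT and from 4.68 and 2.03 CPM to 0.416 and 0.877 CPM in CF (difference 6.34 ± 0.65, adjusted p = 3.3e-04). *C25H10orf10* went from 76.9 and 61.0 CPM to 146 and 927 CPM in CF and from 75.0 and 54.6 CPM to 4.07 and 6.93 CPM in WT (difference 6.52 ± 0.84, adjusted p = 7.9e-04), and without CF term replicate 2 the difference was 4.61 (adjusted p = 4.2e-04). In hypoxia and glycolysis 14 of 41 genes were above WT and 3 below. Without CF term replicate 2 these became 6 and 2, without CF term replicate 1 27 and 2, without CF day 120 replicate 1 8 and 3, without either WT day 120 library 5 and 2, without WT term replicate 1 3 and 2, without WT term replicate 2 9 and 2, and with the 8 libraries alone 0 and 0.

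Against proximal lung of the same animals, with the animal as a block, no gene of 20126 had a change that differed in distal lung at either limit by edgeR (0%, smallest adjusted p = 0.54). At an unadjusted p under 0.05 there were 675 genes, and DESeq2 called 1. Without day 120 replicate 1 there were 4829 genes at that limit, of which 1 was called (smallest adjusted p = 1e-04), and without day 120 replicate 2 there were 158. The fall of mitosis genes had a median of −2.34 in distal and −2.59 in proximal lung, and hypoxia and glycolysis genes a median of 1.76 and 1.81. *TOP2A* in proximal lung was at 133, 52.4, 7.37 and 5.72 CPM and *C7* at 6.12, 7.36, 69.5 and 131 CPM. Airway lists had unequal medians, at 1.68 in distal and −0.61 in proximal lung for secretory genes, and proximal day 120 replicate 2 held 6734 CPM of these genes against 783 CPM in replicate 1. This test had 2 animals at each time point, and it does not show that the regions changed alike.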

How the data were processed

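RNA was measured in bulk by RNA-seq, with oligo dT libraries read as 100 bp pairs. Per the labels, the authors used STAR 2.6 for alignment (the study names a later release, and which made the counts is not settled) and featureCounts 1.6.3 for counting, and the study places the genes on Oar_v4.0. The deposited values are raw counts per gene, not normalized and with replicates kept apart. The strand setting is not given in the sources used here. Gene length was not used. Between 72.4% and 82.2% of counts from 1 to 20 in the distal libraries were even numbers, a pattern that counting each mate of a pair gives, so counting intervals, which cover counting error only, are too narrow.

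Counts were analyzed in R 4.3.3 with edgeR 4.0.16. Genes were kept by filterByExpr (minimum count 10, minimum total 15), scaled by TMM, fitted with 1 mean per time point over the 10 CF distal libraries (5 residual degrees of freedom) and tested by glmQLFTest, with p-values adjusted (Benjamini-Hochberg) across every gene in the fit. The looser limit of 0.05 is an alternative. Differences with genotype used all 20 distal libraries, and those with region all 20 CF libraries with animal as a block. DESeq2 1.42.0, RLE size factors, other tests, filters, limits, thinning, a replicate block and leaving out libraries were alternatives. The fits were tested on simulated data. Labels do not tie replicate numbers across time points, and the 4 animals differ, so the numbers do not pair the samples. The 2 replicates of each time point differed far beyond sampling noise. Interval bounds use a level of 95%.

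The members and gene lists were chosen with earlier results of these data known. Named genes were the 8 DEGs with the largest rise and fall with a symbol and an average log2 CPM no lower than 1, the 4 with the largest change each way in CPM, up to 3 DEGs each way per list or else its 2 most abundant members, the genes the study follows, and the 4 largest differences each way with genotype among genes with a symbol and that average level. Other genes named from the 32 lists were chosen after their values were seen. Of 1141 list entries 1050 were in the files, 21 of them matched by RefSeq gene ID (ARS-UI_Ramb_v3.0 names only). A second deposited copy of the CF counts and the WT proximal counts were not used. Some genes of the lists are not reported by name here.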

Additional observations from a re-analysis of the deposited data

Results flagged for a closer look

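The change from day 120 to term in distal lung differed between CF and WT for 38 genes by a test of the difference itself (edgeR, 20 libraries, adjusted p of 0.001 or less). Given here are the 4 largest differences each way among genes with a symbol and an average log2 CPM of at least 1, and larger ones above WT were found in loci without a symbol, up to 7.16 for *LOC105605070*. The CF change was above the WT change by 6.52 log2 units for *C25H10orf10*, 6.34 for *CDR1*, 2.36 for *AGTR1* and 2.35 for *BMPER*. The differences were −4.15 for *KIF18B*, −3.72 for *E2F7*, −3.66 for *TROAP* and −3.59 for *PTPRE*. *KIF18B*, *E2F7* and *TROAP* are genes of cell division that dropped in CF, while *PTPRE* rose in WT. Each kept its direction in all alternatives run, which refit the counts that chose these genes. In the fit of the 8 day 120 and term libraries alone none of the 8 passed, with the 2 WT day 100 libraries summed *CDR1* and *PTPRE* did, and the largest adjusted p over the alternatives of these genes ran from 0.058 for *PTPRE* to 0.11 for *KIF18B*. *C25H10orf10* ranged from 4.61 to 7.27, and in CF at term its 2 libraries were at 146 and 927 CPM. WT and CF animals also differ in cloning and in the depth of the day 120 libraries, whose part was not tested apart from thinning to equal depth.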

How the results depend on the processing

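The direction of all 28 named DEGs held in all 476 alternative values. These refit the counts that chose the genes, so they are no independent test of direction. The number of DEGs moved with the test and the libraries. DEGs numbered 16 higher and 50 lower. They were 1338 and 1043 by DESeq2, 974 and 911 by the likelihood ratio test, 5 and 22 by glmTreat, 45 and 83 with no filter, 401 and 453 at an adjusted p of 0.01, 2247 and 2230 at 0.05, 674 and 665 at an unadjusted p of 0.001, 310 and 412 with 20 distal libraries, and 0 and 0 with the 4 libraries alone (721 and 406 at 0.05) or, chosen after seeing the data, with days 100, 120 and term alone. Higher calls made up 24.2% of DEGs and 56.2% by DESeq2. Without 1 library they were 0 to 82 higher and 0 to 54 lower, and at 0.05, with all settings at this limit that follow chosen after seeing the data, 390 and 686 without day 120 replicate 1, 2825 and 3156 without day 120 replicate 2, 2581 and 2844 without term replicate 1, and 588 and 611 without term replicate 2. DESeq2 gave 3365 and 3048 and RLE 2429 and 2039 at 0.05. The replicate block gave 31 higher and 51 lower (2556 and 2550 at 0.05). Replicate numbers of day 120 and term deviated with a correlation of −0.18, and the crossed replicate block gave 36 and 71 (2853 and 2715 at 0.05). RLE moved the median of all genes by 0.05. For the difference from WT, 11 above and 27 below became 845 and 1024 at 0.05, 396 and 482 by DESeq2, 22 and 44 with no filter, 0 and 0 with 8 libraries alone, 2 and 5 with the 2 WT day 100 libraries, which carry 1 animal label, summed (chosen after seeing the data), 46 and 60 with the replicate block, and 1 to 185 above and 0 to 291 below without 1 library. For the difference from proximal lung, 0 above became 1 by DESeq2 and 0 to 1 without 1 animal. The cause of these differences was not tested. With 2 libraries a group, changes smaller than the spread between animals were not detectable, and the lone library left when 1 was dropped is assumed to vary like the other groups.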
